A study of Solanum lycopersicum with 12 samples.

Results

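Untreated root and untreated leaf of tomato (Solanum lycopersicum, labelled WT) were compared in 6 of the 12 libraries of the series, 3 per organ. All 6 came from plants sprayed with water and irrigated with 50 mM NaCl (5.8 dS per m), so the comparison is of root with young leaf under salinity, and both organs carry the salt treatment. Plants were sprayed at an age of 65 days, saline watering started 1 day later, and the spray was repeated after 27 days of it. Root and young leaf were collected from plants 127 days old, 2 h after the lights went off. The other 6 libraries came from root and leaf of plants sprayed with PSI-475, a biostimulant, at 2.5 mL per L under the same irrigation, and set no threshold here. The same loci were read in them, and a fit to all 12 libraries gave the interaction terms and 1 alternative. Whether the 3 replicates of an organ were separate plants is not stated in the labels. The p-values therefore reflect the spread among libraries, part of which may be technical.

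Values were FPKM, that is, fragments divided by the length of the locus and by the size of the library. Of 35976 loci, 27040 were above 0 in at least 1 of the 6 libraries, and 19204 had a mean of at least 1 FPKM over them and were tested. Library totals ran from 17108347 to 18586763 fragments in untreated root and from 18190465 to 19622607 in untreated leaf. The deposited table gives no gene names, and 0 of its identifiers matched the RefSeq gene table at hand. Loci are therefore described by level, organ, position in the identifier order and kind of identifier, 4 are given by identifier, and none is given a function. For the same reason the labelled organs could not be checked against defining marker genes. The first principal component of the 6 libraries held 96.9% of the variance and separated root from leaf.

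Replicates were closer to each other in root than in leaf. At loci with 200 fragments or more, replicates varied by a median of 4.14% (coefficient of variation) in untreated root and 8.89% in untreated leaf. Fragment sampling by itself would give 3.81% and 3.67%. At these loci the root spread behind the p-values was thus little above sampling and can hold little variation between plants. Leaf replicate 3 was the farthest from its group: its pairs had a chi-square statistic over degrees of freedom of 17.4 and 13.4, against 5.61 for the other leaf pair and 2.21 to 3.26 for the root pairs. When leaf replicate 3 was left out, the calls numbered 6363 for root and 9210 for leaf, close to the counts with it.

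A root and a leaf divide the work of a plant. The root takes up water and mineral ions, excludes or stores part of the sodium and anchors the plant, while the young leaf builds its photosynthetic apparatus. A large part of the messenger RNA of a green leaf codes for photosynthetic proteins, whose genes are little expressed in roots. Such textbook differences give the setting for the values and were not tested here, since no locus could be tied to a protein.

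Root and leaf differed at 15275 of the 19204 loci tested (79.5%), nearly as often by less than 2-fold as by more. In root, 6259 loci (32.6% of those tested) were higher and 9016 (46.9%) were lower than in leaf (limma on log2(FPKM + 1), Benjamini-Hochberg adjusted p under 0.05). The median difference, root minus leaf, was -0.20 on the log2 scale, with a 5th percentile of -3.22 and a 95th percentile of 2.68. Of the called loci, 7088 (46.4%) differed by less than 2-fold, while 3399 (17.7% of those tested) were at least 2-fold higher in root and 4788 (24.9%) at least 2-fold higher in leaf. Further out, 1627 loci (8.47%) were at least 4-fold higher in root and 2237 (11.6%) at least 4-fold higher in leaf. At least 16-fold, the counts were 361 (1.88%) and 584 (3.04%), and at least 64-fold they were 70 (0.365%) and 142 (0.739%). Every root library was above every leaf library at 6527 loci (34.0%), and every root library was below every leaf library at 9247 (48.2%). How the calls split between the organs changed with the scaling. As deposited, 41.0% of them were higher in root. After median-of-ratios scaling, which brought the median difference to 0.00, 7560 loci were called higher in root against 7538 in leaf, a share of 50.1%. After quantile normalization the share was 51.4%. The counts at least 4-fold higher in root and leaf came closer too, at 1873 and 1992 with median-of-ratios scaling and 1889 and 1911 with quantile normalization. At least 16-fold, they were 420 and 524, and 408 and 522. In bulk tissue, fewer cells of a type and less RNA per cell cannot be told apart.

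**Figure D1:**
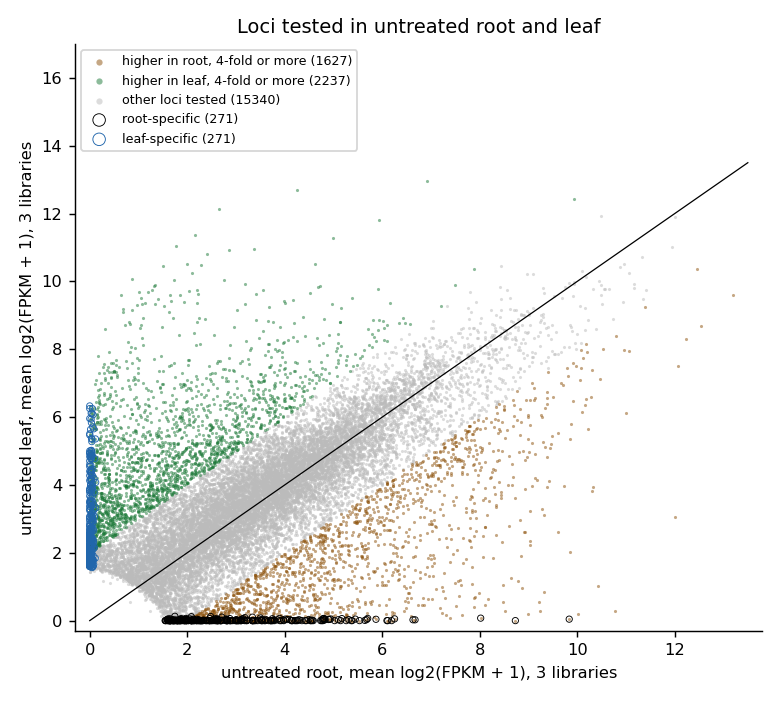
Mean log2(FPKM + 1) of the 3 untreated root libraries (horizontal axis) against that of the 3 untreated leaf libraries (vertical axis), with 1 point for each of the 19204 loci tested and the line of equal levels. Brown points mark the 1627 loci at least 4-fold higher in root, green points the 2237 at least 4-fold higher in leaf, and open circles along the axes (black for root, blue for leaf) the organ-specific loci that passed the filter (271 of each organ).

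The excess of leaf-higher loci in the values as deposited was not seen at every level. Among the 5632 loci with a mean of 1 to 5 FPKM, 5.81% were at least 4-fold higher in root and 7.48% at least 4-fold higher in leaf. On the log2(FPKM + 1) scale a locus averaging near 1 FPKM cannot reach 4-fold, which lowers both shares of this class by construction. Between 5 and 20 FPKM the shares were 7.52% and 12.9% of 7246 loci, and between 20 and 100 FPKM they were 9.46% and 13.7% of 5074. Among the 1252 loci with a mean of 100 FPKM and more the order turned, with 22.0% at least 4-fold higher in root and 14.6% in leaf. With median-of-ratios scaling this order was the same in the top class, at 25.2% and 14.0%, and it turned also in the lowest class, at 7.05% and 6.30%. The difference between the classes was not tested.

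The transcript pool of root was more concentrated in few loci than that of leaf. The 10 most abundant loci of each library held 7.02%, 7.16% and 6.96% of the summed FPKM in untreated root, against 6.51%, 6.25% and 6.94% in untreated leaf. The root libraries were all above the leaf libraries, with root replicate 3 and leaf replicate 3 the closest. The top 100 loci held 23.1% ± 0.0282 in root and 19.6% ± 0.586 in leaf (SD, n = 3 each). The top 1000 held 56.9% ± 0.0724 in root and 50.1% ± 0.744 in leaf (SD, n = 3 each). Root and leaf libraries were fully separated for each of these 3 shares, and an exact permutation test (2-sided) gave p = 0.1, its lower limit with 3 libraries a side. The most abundant loci that together held 50% of the summed FPKM numbered 670, 672 and 674 in root, against 1027, 1005 and 947 in leaf. Counted in fragments, without scaling to length, the top 100 held 17.5% in root and 15.8% in leaf.

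**Figure D2:**
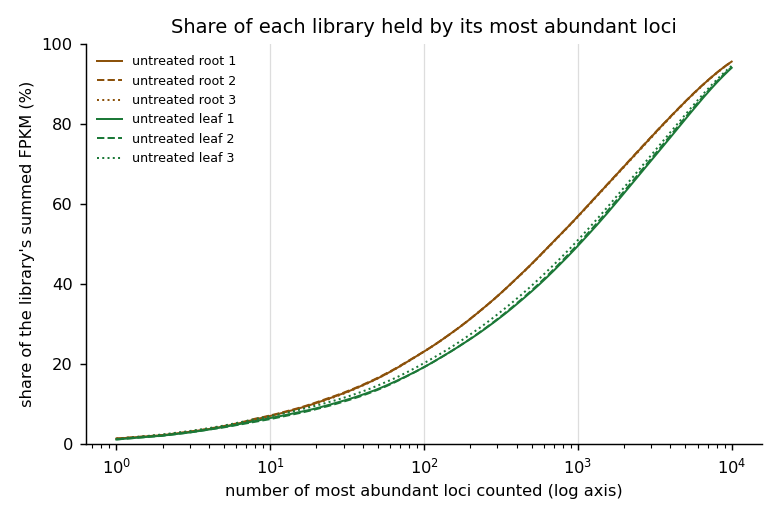
Share of a library's summed FPKM (vertical axis, percent) held by its most abundant loci, against the number of loci counted (horizontal axis, log scale), with 1 line for each untreated library. The 3 root lines lie on each other and above the leaf lines from 100 loci on (23.1% against 19.6% on average), and leaf replicate 3 runs slightly above the other leaf libraries.

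The most abundant loci were largely different in the organs. Of the 10 most abundant loci of each organ, 1 was shared. At least 64-fold differences in favour of the list's own organ were held by 1 locus of the root list and 6 of the leaf list. The shared locus stood at rank 6 in both lists. It had 4074, 4201 and 4066 FPKM in the root libraries and 4280, 3701 and 3621 FPKM in the leaf libraries, which overlapped (log2 difference 0.09, SE 0.08, limma adjusted p = 0.315). The leading root locus had 9222, 9306 and 9508 FPKM in root, against 728, 901 and 689 FPKM in leaf. It was 12.1-fold higher in root and still ranked 72 among leaf loci. In treated plants the gap was smaller, with means of 1526 FPKM in root and 972 FPKM in leaf. The leading leaf locus had 119, 117 and 123 FPKM in root, against 7571, 7733 and 8571 FPKM in leaf. That is 66.5-fold higher in leaf, and in root it ranked 1010. In treated plants its means were 230 FPKM in root and 10251 FPKM in leaf.

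At rank 2 in leaf stood a locus that averaged 18.2 ± 1.54 FPKM in root and 6667 ± 879 FPKM in leaf (SD, n = 3 each), or 367-fold higher in leaf. The locus at rank 4 averaged 5.30 ± 0.555 FPKM in root and 4539 ± 363 FPKM in leaf (SD, n = 3 each), or 856-fold higher in leaf by the ratio of means, with the largest fitted log2 difference of the leaf list at -9.49. The locus at rank 10 averaged 2.42 ± 0.179 FPKM in root and 2130 ± 222 FPKM in leaf (SD, n = 3 each), with the largest ratio of means at 881-fold and a fitted difference of -9.28. One root locus, at rank 7, came near such gaps, with 4199, 4406 and 3715 FPKM in root, against 6.07, 7.07 and 9.37 FPKM in leaf, or 548-fold higher in root. The remaining 9 loci of the root list were at most 23.5-fold higher in root. By the median, the top 10 root loci ranked 87 in leaf, while the top 10 leaf loci ranked 2925 in root.

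The lists of the top 100 loci of each organ shared 33 loci. Of the root list, 47 loci were at least 4-fold and 9 at least 64-fold higher in root, while of the leaf list, 56 were at least 4-fold and 40 at least 64-fold higher in leaf. These counts are descriptive, because a locus enters a list by its level in that organ. By direction, 88 of the root list were called higher in root and 3 higher in leaf, and of the leaf list 21 were called higher in root and 70 higher in leaf. Over all loci tested, 32.6% were called higher in root and 46.9% higher in leaf. The own direction is also favoured by the way a locus enters a list. The median log2 difference in favour of the list's own organ was 1.86 for the root list and 3.99 for the leaf list. Over the top 1000 the order of these medians was the opposite, at 1.39 for root and 0.77 for leaf. Of the top 1000, 385 root loci and 323 leaf loci were at least 4-fold higher in their own organ, and 55 root loci and 111 leaf loci at least 64-fold. None of these differences between lists was tested. The median recovered length was 793 bases in the root list and 849 in the leaf list.

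A sizeable group of loci was abundant in both organs. Of the 2452 loci with at least 50 FPKM in root and the 2643 in leaf, 1439 were common to both. Of these 1439, 1077 differed by less than 2-fold, 148 by less than 0.1 on the log2 scale, and 298 were not called. Over all 19204 loci tested, 3929 were not called, a share near that in this group. Another 76 were at least 4-fold higher in root and 26 at least 4-fold higher in leaf. The 5 loci with the smallest differences had 53.0 to 96.8 FPKM in root and 53.0 to 97.3 FPKM in leaf, with log2 differences of -0.0029 to 0.0018.

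Few loci were confined to 1 organ in the sense of detection. At least 1 FPKM in every library was reached by 15085 loci in both organs, by 1995 in root but not in every leaf library, and by 2381 in leaf but not in every root library. A locus was called root-specific when every root library had at least 1 FPKM and every leaf library less than 0.1 FPKM, and leaf-specific the other way round. By this definition 371 loci were root-specific and 356 leaf-specific, and 271 of each passed the filter on the mean. These sets are cut from the values of the same libraries, so their differences are given as a description, with no test of a set. The p-values of single loci come from the fit over all 19204 loci. For loci chosen by this definition they rest on the values that chose them. No fragment in any library of the other organ was found for 235 of the root-specific loci and 162 of the leaf-specific ones. The others had at most 20 fragments over the 3 leaf libraries and at most 42 over the 3 root libraries.

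Most organ-specific loci were expressed at low levels. The median was 3.34 FPKM in root for the root-specific loci (quartiles 1.93 and 7.91) and 3.34 FPKM in leaf for the leaf-specific loci (quartiles 2.06 and 8.16). At least 10 FPKM was reached by 78 root-specific and 81 leaf-specific loci, and at least 100 FPKM by 4 and 0. Root-specific loci made up 0.571% ± 0.00859 of the root fragments and 7.06e-04% ± 5.12e-05 of the leaf fragments (SD, n = 3 each). Without the 3 most abundant of them the share in root was 0.449%. Leaf-specific loci made up 0.00113% ± 6.13e-05 of the root fragments and 0.452% ± 0.0173 of the leaf fragments (SD, n = 3 each).

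Of the 2 most abundant root-specific loci, Solyc03g020070.3 on chromosome 3 had 1089, 815 and 857 FPKM in the untreated root libraries, against 0.0939, 0 and 0 FPKM in the untreated leaf libraries. The leaf values rest on 1 fragment in all, against 26924 in root. The ratio of fragment rates was 28504, with an exact 95% interval from 5115 to 1125895 that covers counting error only. On the log2(FPKM + 1) scale the difference was 9.79 (SE 0.11, limma adjusted p = 6.17e-10). The other, Solyc03g098710.1, also on chromosome 3, had 430, 429 and 412 FPKM in root and 0 fragments in all 3 leaf libraries. Set against a floor of 3 fragments per leaf library, or 0.233 FPKM, it was at least 1820-fold higher in root. Fitted log2 differences against a group at 0 depend on the pseudocount and are no bound. Both were far above all leaf libraries in every root library, and the second varied less between root replicates, with a mean of 424 ± 10.2 FPKM against 920 ± 148 FPKM for the first (SD, n = 3 each).

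Of the leaf-specific loci, Solyc07g044910.1 on chromosome 7 had 0 fragments in all 3 root libraries, against 48.3, 62.7 and 164 FPKM in the leaf libraries. Leaf replicate 3 stood apart, and without it the leaf mean was 55.5 in place of 91.7 FPKM and the log2 difference -5.81. With a recovered length of 156 bases, the floor of 3 fragments in root was 1.07 FPKM, so the locus was at least 86.0-fold higher in leaf, or at least 52.0-fold without leaf replicate 3. Solyc12g015630.2 on chromosome 12 likewise had 0 fragments in all 3 root libraries, against 77.1, 86.4 and 63.8 FPKM in leaf. It was at least 260-fold higher in leaf, with a log2 difference of -6.25 (SE 0.12, limma adjusted p = 2.86e-09). The 2 leaf loci had about the same fitted difference, -6.33 for the first (SE 0.39, limma adjusted p = 1.73e-06), with an SE more than 3 times that of the second.

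**Figure D3:**
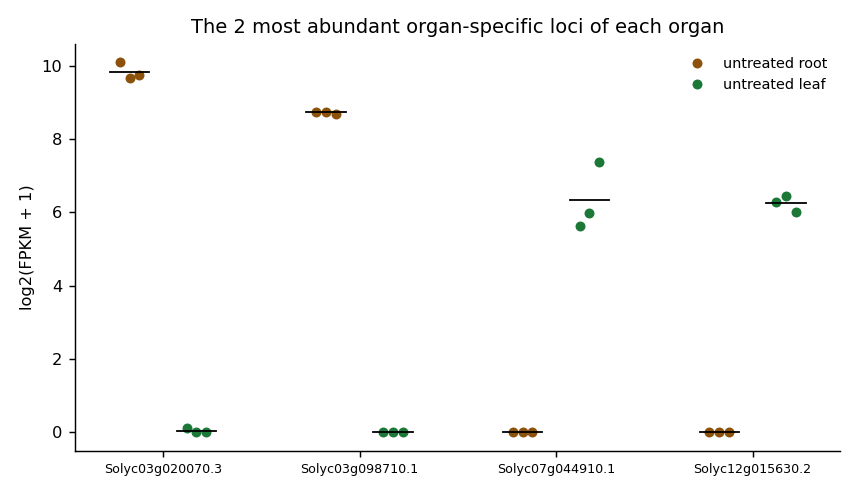
Level of the 2 most abundant root-specific and the 2 most abundant leaf-specific loci in each of the 3 untreated root (brown) and 3 untreated leaf (green) libraries, on the log2(FPKM + 1) scale, with the mean of each group as a bar. Root and leaf do not overlap at any of the 4 loci, and leaf replicate 3 of Solyc07g044910.1, at 164 FPKM, lies above the other leaf libraries of that locus.

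Part of the organ-specific loci stood side by side in the identifier order, which in this scheme follows the chromosomes. Of the 324 root-specific loci with tomato locus identifiers, 54 (16.7%) had another root-specific locus as a direct neighbour, in 22 runs. Of the 314 leaf-specific ones, 39 (12.4%) did, in 18 runs of at most 3 loci. The longest run held 8 root-specific loci in a row on chromosome 7, with 1.12 to 20.8 FPKM on average in root and 0 fragments in all leaf libraries at each of the 8 loci. In root these 8 loci had 1879 fragments in all. The highest of them, at place 6, had 19.5 to 22.9 FPKM in root and 0 in leaf. The run ended sharply on its far side: the next locus was near 0 in both organs, and the one after had 21.9 FPKM in root and 21.5 FPKM in leaf. Directly before the run, a locus had 2.38, 1.51 and 0.399 FPKM in root and 0.189, 0.204 and 0 FPKM in leaf. It missed both the root and the leaf limit of the set. The locus 4 places further back, beyond 3 loci at 0 in both organs, was again root-specific, with 3.36, 3.48 and 2.95 FPKM in root and 0 in leaf. Where neighbouring loci are near-identical copies, the counting could split or lose their reads.

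**Figure D4:**
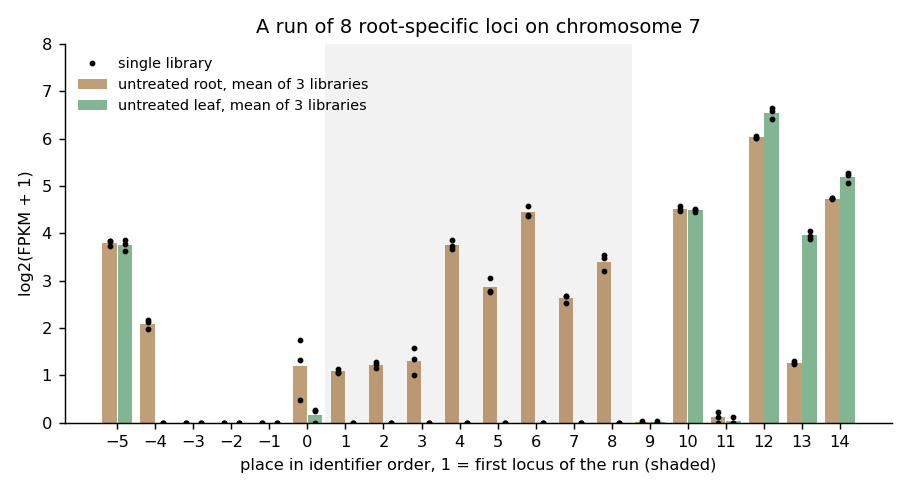
Levels of 20 successive loci on chromosome 7 in untreated root (brown) and untreated leaf (green), as log2(FPKM + 1), with bars for the mean of 3 libraries and points for single libraries. The 8 shaded loci have bars in root and none in leaf, while the loci at places 10, 12 and 14 are well expressed in both organs.

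Runs were also counted among the larger sets of loci that differed by at least 4-fold, which make up 8.44% (root) and 11.8% (leaf) of the tested tomato loci. Among tested loci in identifier order, 555 of 1560 root-higher loci (35.6%) and 740 of 2176 leaf-higher loci (34.0%) had a neighbour of the same set. The shares were not tested against chance. The 8.44% and 11.8% are no yardstick for them, since a locus can have a neighbour on either side. The longest such runs held 7 loci in root, on chromosome 3, with a median of 369 FPKM in root and 1.99 FPKM in leaf, and 8 loci in leaf, on chromosome 4, with a median of 0.278 FPKM in root and 23.1 FPKM in leaf. A run of 6 leaf-higher loci on chromosome 10 was the most abundant of those with 5 or more loci by the median level in leaf. Its members averaged 0.165 to 8.16 FPKM in root and 83.1 to 2688 FPKM in leaf, 120-fold to 776-fold higher in leaf. Together these 6 loci took 0.00105% of the root fragments and 0.427% ± 0.0593 (SD, n = 3) of the leaf fragments, and 5 of them were among the 100 most abundant leaf loci. This share of the leaf library is close to that of all 356 leaf-specific loci together.

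Loci that differed by at least 4-fold were found on all 12 chromosomes. The share of tested loci at least 4-fold higher in root ran from 6.55% on chromosome 11 to 11.5% on chromosome 2, against 8.47% over all loci. The share at least 4-fold higher in leaf ran from 10.1% on chromosome 6 to 14.3% on chromosome 12, against 11.6%. Chromosome 2 was the 1 chromosome of 12 with more root-higher than leaf-higher loci at this size, 232 against 213. With median-of-ratios scaling chromosome 2 kept that order, at 267 against 182, and chromosomes 4 and 6 joined it.

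Loci with non-coding RNA identifiers split differently from all loci in the counts of calls, though they also varied between replicates. Of the 1167 loci with non-coding RNA identifiers, 159 were tested, with a median length of 112 bases. Of these, 46 (28.9%) were called for root and 13 (8.18%) for leaf, against 32.6% and 46.9% over all loci, and 100 were not called. Their median log2 difference was 0.34, which is 0.54 above that of all loci, and it stayed positive with median-of-ratios scaling (0.53) and quantile normalization (0.57). The numbered loci, which carry neither a tomato locus nor a non-coding RNA identifier, were closer to all loci: of 551 tested, 196 (35.6%) were called for root and 217 (39.4%) for leaf. The numbered locus with the highest root level had 1070, 1006 and 1023 FPKM in root, against 0.177, 0.239 and 0 FPKM in leaf. It ranked 59 among root loci (log2 difference 9.83, SE 0.09, limma adjusted p = 3.06e-10).

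Non-coding RNA loci together took 0.170%, 0.115% and 0.279% of the fragments in root replicates 1, 2 and 3, against 0.133%, 0.124% and 0.228% in leaf replicates 1, 2 and 3. The ranges of the organs overlapped, and replicate 3 was the highest in both. The most abundant of these loci had 1104, 776 and 1830 FPKM in root, against 992, 889 and 1610 FPKM in leaf, so that its spread within each organ was wider than its difference between them. With each library left out in turn, 43 to 49 of these loci were called higher in root and 11 to 17 higher in leaf. With the replicate number as a block in the fit, 56 were called higher in root and 16 higher in leaf. What part the variation between replicates has in the split was not tested beyond this.

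The tested loci were also put in 5 classes by recovered length, from up to 785 bases to 2831 bases and more. From the shortest class to the longest, 12.3%, 9.70%, 7.76%, 6.63% and 5.97% were at least 4-fold higher in root. In the same order, 12.8%, 14.5%, 12.9%, 10.5% and 7.56% were at least 4-fold higher in leaf. The root share was lower in each longer class, and the leaf share was highest in the next to shortest class. Differences between classes were not tested. Recovered lengths can be too small, and low fragment counts of short loci were not set apart.

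The same loci were then read in root and leaf of PSI-475-treated plants, whose libraries had no part in choosing them. Over all 19204 loci, every treated root library was above every treated leaf library at 46.0% and below at 34.4%, and 5.98% were at least 4-fold higher in treated root and 9.86% in treated leaf. Past 16-fold, 584 loci were higher in leaf of untreated plants. All 584 had every treated leaf library above every treated root library, and 579 (99.1%) were still at least 4-fold higher in leaf. Past 16-fold in the other direction, with 361 loci higher in root, 337 had every treated root library above every treated leaf library, 12 the reverse, and 264 (73.1%) were still at least 4-fold higher in root. Among the loci past 4-fold, 1388 of 1627 root-higher and 2198 of 2237 leaf-higher loci kept non-overlapping groups in the same direction, and 104 and 10 had them in the opposite direction. At least 4-fold differences were kept by 46.3% of the root-higher and 67.9% of the leaf-higher loci.

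Root-specific loci were spread widely in treated root, and leaf-specific loci stayed closer to their level in treated leaf. The difference between the sets was not tested. Such changes were not counted over all loci expressed in an organ, so the spread is not shown to be particular to either set. The definition was met again in treated plants by 186 of 371 root-specific and 196 of 356 leaf-specific loci. Of the root-specific loci, 232 still had at least 1 FPKM in every treated root library, and of the leaf-specific loci 312 had it in every treated leaf library. The ratio of treated to untreated root level over the root-specific loci had a median of 0.863 with quartiles of 0.182 and 2.57, so that 150 loci were more than 2-fold lower and 115 more than 2-fold higher in treated root. Their share of the root fragments went the other way than this median, at 0.861% ± 0.0108 in treated and 0.571% ± 0.00859 in untreated plants (SD, n = 3 each). Of the leaf fragments they held 0.00166% ± 1.44e-04 in treated and 7.06e-04% ± 5.12e-05 in untreated plants (SD, n = 3 each). For the leaf-specific loci, the ratio of treated to untreated leaf level had a median of 0.988 with quartiles of 0.706 and 1.62. Of the leaf fragments they held 0.497% ± 0.00725 in treated and 0.452% ± 0.0173 in untreated plants (SD, n = 3 each). Of the root fragments they held 0.00389% ± 4.79e-04 in treated plants and 0.00113% ± 6.13e-05 in untreated plants (SD, n = 3 each). Since the sets were cut at under 0.1 FPKM in the other untreated organ, that side had little room to be lower in treated plants. All 8 loci of the run on chromosome 7 were higher in every treated root library than in any untreated one, with a median of 18.8 against 5.76 FPKM, and their median in treated leaf was 0. This was not counted over all loci, so the rise is not shown to be particular to the run. Treated root means were also higher at places 10 (109 against 21.9 FPKM), 12 (110 against 64.3 FPKM) and 14 (47.8 against 25.6 FPKM) near it. Places 9 and 11 were near 0 in untreated and at 0 in treated root.

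**Figure D5:**
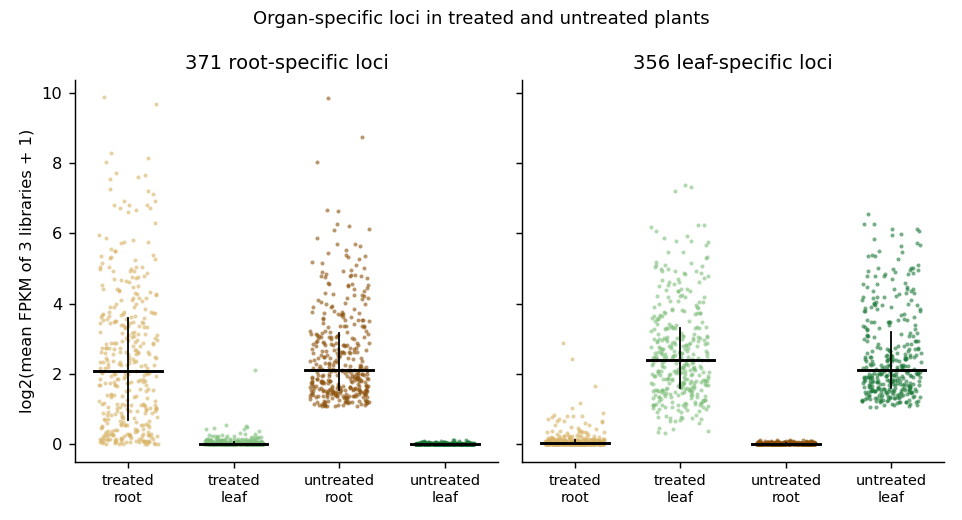
Level of the 371 root-specific (left) and 356 leaf-specific (right) loci in treated root, treated leaf, untreated root and untreated leaf, as log2 of the mean FPKM of 3 libraries plus 1, with 1 point per locus, the median as a thick bar and the quartiles as a thin line. In the left panel the points of treated root spread down to 0 and up past those of untreated root (quartiles of the ratio 0.182 and 2.57), while in the right panel treated leaf stays close to untreated leaf (0.706 and 1.62).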

How the data were processed

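Libraries were prepared from 30 mg of tissue with a NEBNext Ultra kit, per the labels' protocols. Tools named without versions in the submitters' processing notes are fastp, featureCounts and DESeq2. Aligner, build, gene models and strandedness were not given in the sources used here, so overlapping loci and near-identical copies may share reads. The authors deposited FPKM for 35976 loci in 12 columns, all mapped to samples by name. Whole fragments and locus lengths were recovered from the FPKM digits (tolerance 0.001). Where every count of a locus has a common divisor, it cannot be seen, and length and counts then come out too small (shortest length 6 bases).

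Loci averaging 1 FPKM or more across the 6 untreated libraries were tested on log2(FPKM + 1) by limma 3.58.1 (R 4.3.3, trended variance), root minus leaf, 2-sided, Benjamini-Hochberg adjusted, threshold 0.05. This scale understates the change of low loci. Floors of 3 fragments and intervals cover counting error only. Planned lists of genes by function could not be evaluated, because 0 identifiers matched the RefSeq gene table of SLM_r2.1. In their place loci were grouped by kind of identifier, level, length and chromosome. The rule for loci given by identifier took the 2 most abundant organ-specific tomato loci of each organ. The unnamed ones were described by rank or run after their values were seen. The loci, thresholds and groups were chosen with earlier results of these data known. Alternatives varied the pseudocount, filter, scaling, spread, libraries in the fit, threshold, test, replicate block and the replicates included. Plots used matplotlib 3.10.9.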

Additional observations from a re-analysis of the deposited data

Results flagged for a closer look

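At 2 of the 4 loci given by identifier the interaction term (treated minus untreated plants, of root minus leaf) passed the threshold in a limma fit to all 12 libraries. At Solyc03g098710.1 the difference, root minus leaf, was larger in treated plants by 0.94 on the log2 scale (SE 0.08, limma adjusted p = 4.74e-07). Its root mean was 816 ± 43.3 FPKM in treated and 424 ± 10.2 FPKM in untreated plants (SD, n = 3 each), with all 3 treated root libraries above the untreated ones and 0 fragments in every leaf library. At Solyc12g015630.2 the term was 0.74 (SE 0.15, limma adjusted p = 8.01e-04, and dependent on the pseudocount since untreated root is at 0). This locus was chosen for values under 0.1 FPKM in untreated root, so treated root could hardly be lower, and no change of the organ difference is read from the term. It had 5, 7 and 6 fragments in the treated root libraries and 0 in each untreated root library, and its leaf mean was 70.8 ± 4.13 FPKM in treated and 75.8 ± 11.3 FPKM in untreated plants (SD, n = 3 each). For Solyc03g020070.3 the term was -0.05 (SE 0.17, limma adjusted p = 0.823) and for Solyc07g044910.1 it was 1.03 (SE 0.51, limma adjusted p = 0.0940), neither past the threshold.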

How the results depend on the processing

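Of the alternative values of the main counts and shares, 115 kept their direction or stayed within 1.5 times, and the 8 given next did not. Loci at least 16-fold higher numbered 885 in root and 1265 in leaf with a pseudocount of 0.1, against 361 and 584, where a smaller pseudocount widens the log2 difference of low loci by construction. With limma-voom on recovered fragments, where 1 FPKM is not added to the values, they numbered 967 and 1351, and the cause was not tested. Root-specific and leaf-specific loci numbered 124 and 107 with at least 5 FPKM required in the own organ, and 235 and 162 with 0 required in the other, by construction of the stricter rules. With quantile normalization 7806 loci were higher in root and 7367 in leaf (51.4% of calls higher in root). Leaving out each library in turn gave 5817 to 6363 loci higher in root and 8517 to 9210 higher in leaf, 1611 to 1649 and 2231 to 2250 at least 4-fold, 359 to 370 and 580 to 590 at least 16-fold, and 389 to 453 root-specific and 374 to 432 leaf-specific loci. Deviations of same-numbered root and leaf libraries correlated at 0.04, -0.04 and -0.08, and those of differently numbered ones at -0.09 to 0.10. Whether same-numbered libraries share a plant or a preparation cannot be read from this, since root replicates varied little beyond fragment sampling. With the replicate block 6140 loci were higher in root and 8851 in leaf. The 4 loci given by identifier kept direction and call in all 17 alternatives. That is no support for them, since they were chosen for such a gap in the same libraries. Of the counts of non-coding RNA loci, 3 moved past 1.5 times: 22 and 7 of 74 tested with a mean of at least 5 FPKM, and 6 higher in leaf at an adjusted p under 0.01. Depth limits absence: in loci of up to 509 bases a value under 0.1 FPKM means 0 fragments in any of the 6 libraries.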
